A study of Saccharomyces cerevisiae with 12 samples.

Results

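YHB1 (YGR234W), SFA1 (YDL168W), SSU1 (YPL092W) and FZF1 (YGL254W) are the genes of Saccharomyces cerevisiae most closely tied to defence against nitric oxide. They are 4 of the 6150 open reading frames (ORFs) in the deposited table, and each had a value on all 12 arrays. They were chosen by ORF name with earlier results of these data in view, in particular the difference between carbon monoxide (CO) and nitrogen (N2). The values of CO against N2 are therefore given for these genes as a description, with no p-value for any of them. Tests were run on quantities that this difference does not enter: the mean of both gases against air, and changes over time common to both gases. The CO values themselves do enter these quantities, so the tests of the 4 genes are not independent of the choice.

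Both gas-exposed and air cells were BY4741, a haploid strain of the laboratory in which all or part of URA3, MET17, LEU2 and HIS3 is deleted. After growth on glucose they were plated on nylon membranes on solid YP acetate and held in pure N2 or pure CO. Cells were taken after 15, 30, 45, 60 and 120 min and after 24 h. On every array, amplified RNA of the gas-exposed cells carried Cy5 and that of room air cells of the matching time carried Cy3. Each gas had 6 arrays, 1 per time, and the dyes were never swapped. Times were used in place of replicates, so an error is a spread between times.

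YHB1 encodes a flavohemoglobin, a heme globin joined to a flavin reductase, which uses oxygen to turn nitric oxide into nitrate. CO binds reduced heme and can occupy the site where flavohemoglobins bind oxygen. SFA1 encodes a glutathione-dependent formaldehyde dehydrogenase of the alcohol dehydrogenase family that also reduces S-nitrosoglutathione. SSU1 encodes the plasma membrane pump that exports sulfite, and FZF1 encodes the zinc finger activator of SSU1 that also activates YHB1 under nitrosative stress.

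The values are log2 ratios of gas over air. The base was assumed from their range, and the direction is the likely one, read from the dyes, since neither is stated in the labels; with the opposite direction every sign below would turn. A given array held 5843 to 6056 values, with medians of -0.18 to 0.01. The spread over ORFs widened with time, with an SD of 0.357 (CO) and 0.374 (N2) at 15 min against 1.20 and 1.27 at 24 h. The genes that the strain lacks in whole or part gave a background: their 48 values had an SD of 0.317, and their 24 differences between CO and N2 lay between -0.62 and 0.87. Each array compared RNA of whole lawns of cells, so more transcript per cell and more cells with the transcript cannot be told apart. The number of arrays limits the precision.

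In CO, the YHB1 ratio was high from 30 to 120 min. In CO it stood at 0.72 at 15 min, 2.63 at 30 min, 2.45 at 45 min, 3.00 at 60 min, 3.73 at 120 min and 1.42 at 24 h. In N2 it stood at 0.54, 0.66, 0.59, 1.00, 1.00 and 1.76 at the same times. All 12 values lay above 0. The gases were close at 15 min and at 24 h, and at the 4 times between them every CO value exceeded every N2 value. On a linear scale the CO values from 30 to 120 min were 6.19, 5.46, 8 and 13.3 times the air level, and the N2 values were 1.58, 1.51, 2 and 2 times that level.

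**Figure D1:**
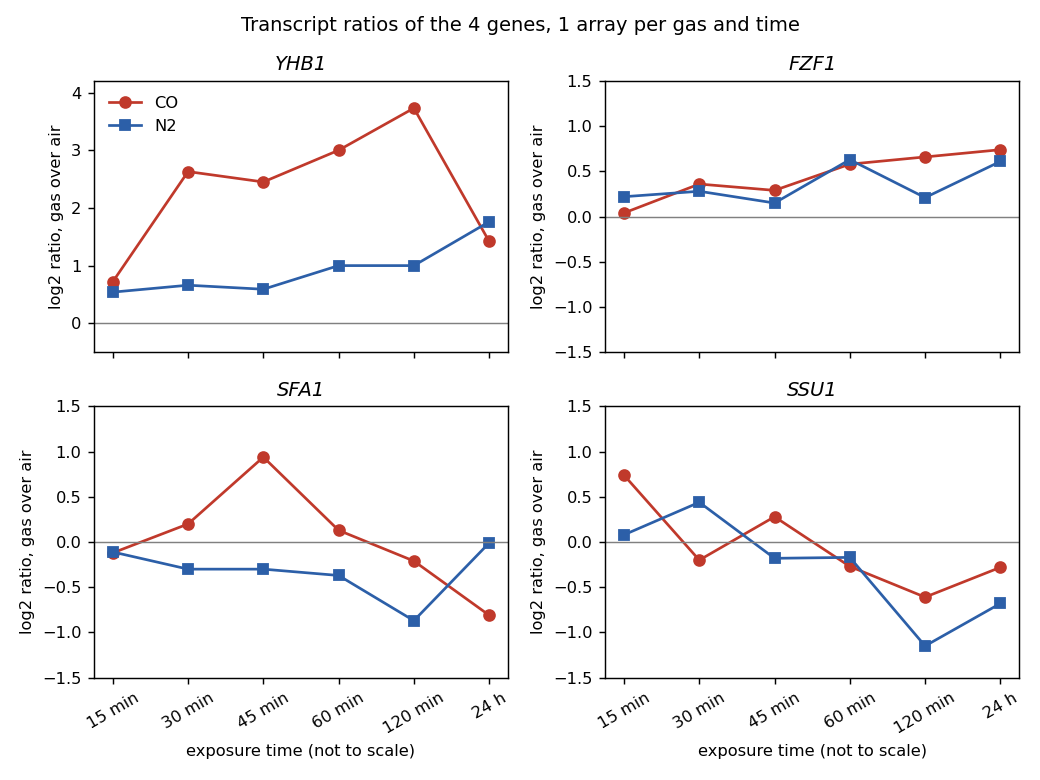
Log2 ratio of gas over air of YHB1, FZF1, SFA1 and SSU1 (vertical axes; that of YHB1 spans a wider range) at each exposure time (horizontal axis, not to scale), with 1 point per array, CO as red circles and N2 as blue squares. YHB1 in CO stood between 2.45 and 3.73 from 30 to 120 min, while in N2 it stood between 0.59 and 1.00 at those times.

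YHB1 had the highest ratio of all ORFs in CO at 30 min, of 5843 measured, and at 45 min, of 6047. At 60 min 1 ORF stood above it, the iron-sulfur scaffold gene ISU1 (YPL135W) at 3.17, and at 120 min 1 ORF did, YLR162W at 4.00. Averaged over these 4 CO arrays, YHB1 stood at 2.95 ± 0.57 (log2, SD, n = 4 times), and the next ORF, PUN1 (YLR414C), at 2.32. In N2, YHB1 lay far from the top, at place 341 to 847 over the same times. The 24 h arrays gave it similar places in both gases, 539 in CO and 479 in N2.

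The difference of CO minus N2 for YHB1 was 0.18 at 15 min, 1.97 at 30 min, 1.86 at 45 min, 2 at 60 min, 2.73 at 120 min and -0.34 at 24 h. CO thus exceeded N2 by 3.92, 3.63, 4 and 6.63 times at the middle 4 times, and not at 24 h. Over all 6 times the mean difference was 1.40 ± 1.20 (SD, n = 6), the highest of the 5672 ORFs with a value on all 12 arrays. YHB1 was also the 1 ORF of these 5672 at least 2-fold higher in CO at each of 30, 45, 60 and 120 min. At all 4 times 0 ORFs were at least 2-fold lower. This window was not planned and holds just the times at which YHB1 differed, so the count is a description and no independent support. Among all ORFs measured on both arrays of a time, including some with missing values at other times, 17 had a larger difference than YHB1 at some of these times, 0 of them at more than 1 time. Between 120 min and 24 h the YHB1 ratio fell by 2.31 in CO and rose by 0.76 in N2, each read from 1 array per time and not tested.

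**Figure D2:**
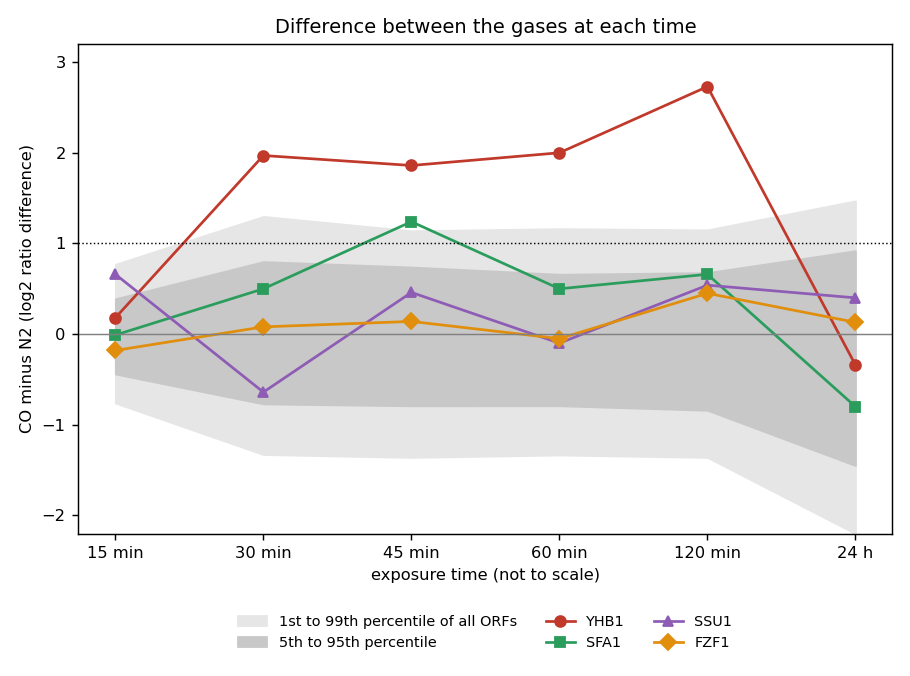
CO minus N2 (difference of log2 ratios, vertical axis) at each time (horizontal axis, not to scale) for the 4 genes, over grey bands for all ORFs; the dotted line marks a 2-fold difference. YHB1 lay above the 99th percentile from 30 to 120 min, SFA1 above it at 45 min alone, and FZF1 stayed within the 5th to 95th percentiles.

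Counted by a 2-fold difference, 0 of the 4 genes were higher in CO at 15 min, against 0.367% of all ORFs. At 30 min YHB1 was, where 2.73% of ORFs were. At 45 min YHB1 and SFA1 were, where 1.9% of ORFs were. YHB1 was the only member at 60 min, against 1.73% of ORFs, and at 120 min, against 1.63%. At 24 h 0 of the 4 were, against 4.17%. These counts use the contrast for which the genes were chosen and are a description. For the same reason no p from limma's fit of CO minus N2 is given for the 4 genes, though the fit included them. As a background over all ORFs, with the 4 genes among them, it called 0 of 5672 (0%). At an unadjusted p below the threshold of 0.05 there were 584.

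**Figure D3:**
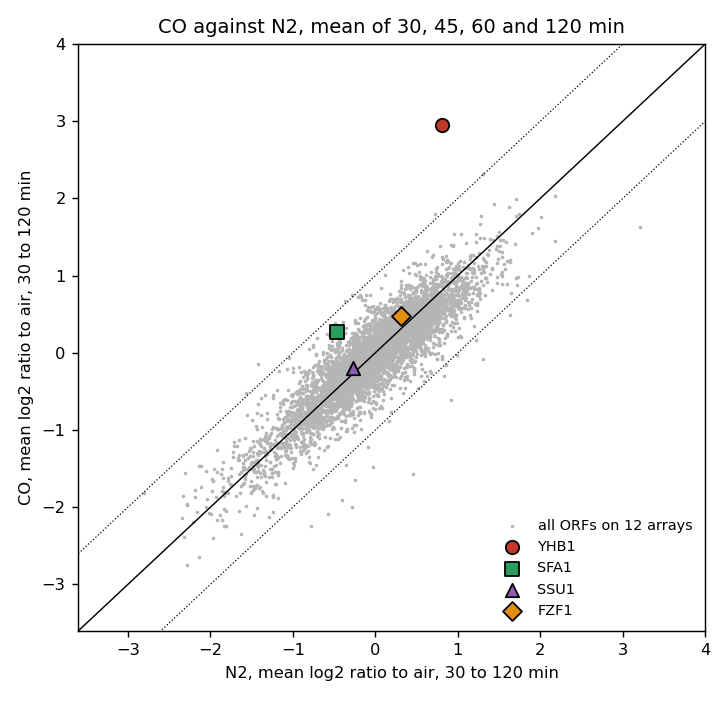
Mean log2 ratio to air over 30, 45, 60 and 120 min in CO (vertical axis) against N2 (horizontal axis), for the 5672 ORFs with a value on all 12 arrays; the solid line marks equal means and the dotted lines a 2-fold difference. YHB1, at 2.95 in CO and 0.81 in N2, lies apart from the cloud, while FZF1 and SSU1 lie near the solid line and SFA1 above it.

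Averaged over both gases, YHB1 rose against air by 1.62 ± 0.20 (log2, moderated SE, n = 6 times, limma adjusted p = 0.00271) and was higher on 12 of 12 arrays. This mean joins unequal parts, 2.33 ± 1.09 (SD, n = 6) in CO and 0.93 ± 0.46 in N2. FZF1 rose by 0.40 ± 0.11 (adjusted p = 0.0273), also higher on 12 of 12 arrays. Of the 4 genes 2 were called higher and 0 lower, where 17% of ORFs were called higher and 20.9% lower. The 2-sided exact sign-flip test over the 6 times gave p = 0.0312 for each of YHB1 and FZF1, the smallest it allows. The YHB1 call held under all 24 alternatives run, the sign-flip test with its unadjusted p among them. It rests in part on the CO values in view when the genes were chosen. The FZF1 call was lost without 30, 45, 60 or 120 min (adjusted p = 0.0622, 0.0576, 0.0835 and 0.0676) and with the 15 min ratios subtracted (adjusted p = 0.112). Since the dyes were never swapped, a constant dye effect on a gene cannot be told apart from a constant rise against air. Subtracting the 15 min ratios removes such an effect, and also any rise already present at 15 min. It takes the same value, from 1 array per gas, off every later time. The error of that value is shared by all later times and does not enter the p-values of this setting.

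FZF1, the activator, stood slightly above air in both gases. In CO it stood at 0.04, 0.36, 0.29, 0.58, 0.66 and 0.74 from 15 min to 24 h, and in N2 at 0.22, 0.28, 0.15, 0.63, 0.21 and 0.61. The gases overlapped throughout, with a difference of 0.10 ± 0.21 (SD, n = 6) and a widest gap of 0.45 at 120 min. All FZF1 values but that in CO at 24 h (0.74) lay within the values of the genes that the strain lacks, which reached 0.67. Averaged over both gases and all times, those genes lay between -0.23 and 0.10, and FZF1 stood above them at 0.40. At 30 min in CO, where YHB1 stood at 2.63, FZF1 stood at 0.36.

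SFA1 was below air on all 6 N2 arrays and on 3 of 6 CO arrays. In N2 it stood at -0.11, -0.30, -0.30, -0.37, -0.87 and -0.01 from 15 min to 24 h. In CO it stood at -0.12, 0.20, 0.94, 0.13, -0.21 and -0.81. The gases were 0.01 apart at 15 min, CO was the higher at 30, 45, 60 and 120 min, and N2 was the higher at 24 h. The differences of CO minus N2 were -0.01, 0.50, 1.24, 0.50, 0.66 and -0.80. Over 30 to 120 min the mean difference was 0.73 ± 0.35 (SD, n = 4), the 40th highest of 5672 ORFs. The differences at 30, 60 and 120 min lay within those of the genes that the strain lacks, -0.62 to 0.87, and that at 45 min lay above them. The mean of both gases against air was -0.15 ± 0.13 (SE, n = 6 times) and did not pass (adjusted p = 0.376).

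SSU1 values were mixed in sign up to 45 min and below air from 60 min on, with the gases crossing. In CO it stood at 0.74, -0.20, 0.28, -0.27, -0.61 and -0.28 from 15 min to 24 h. In N2 it stood at 0.08, 0.44, -0.18, -0.17, -1.15 and -0.68. The difference of CO minus N2 changed sign between neighbouring times up to 120 min, at 0.66, -0.64, 0.46, -0.10 and 0.54, and was 0.40 at 24 h. Averaged over both gases and all times SSU1 stood at -0.17 ± 0.17 (SE) and did not pass (adjusted p = 0.456). With the 15 min ratios subtracted it fell by 0.69 (limma adjusted p = 0.0382). That setting takes the same 15 min value, 0.41 as the mean of 0.74 in CO and 0.08 in N2, off every later time. The error of this 1 value does not enter the p-value, so the call rests heavily on the 15 min arrays.

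Changes over time common to both gases passed the test in 0 of the 4 genes. Between 15 and 30 min and 60 and 120 min, SSU1 came nearest, at -0.82 ± 0.25 (log2, SE, adjusted p = 0.0546). It passed when 60 min, the CO array of 30 min or the N2 array of 60 min was left out (adjusted p = 0.0194, 0.0271 and 0.0281). With other times or arrays left out it did not pass, with limma adjusted p up to 0.425 without 1 time and 0.176 without 1 array. YHB1 stood at 1.05 ± 0.47 in that comparison (adjusted p = 0.153), FZF1 at 0.30 ± 0.16 and SFA1 at -0.25 ± 0.27, where 12.7% of ORFs were called in either direction. At 24 h against the earlier times FZF1 stood at 0.35 ± 0.17 (adjusted p = 0.110), SFA1 at -0.38 ± 0.30, SSU1 at -0.40 ± 0.28 and YHB1 at -0.02 ± 0.51 (adjusted p = 0.974), where 47.7% of ORFs were called. Each 24 h array decided the SFA1 value: it was 0.31 without the CO array and -1.07 without the N2 array, where it passed (adjusted p = 0.0253). That of YHB1 was 1.02 and -1.07 without these arrays, and passed in neither case.

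The other genes that FZF1 activates are YNR064C, an epoxide hydrolase, and YFL061W and YNL335W. YFL061W and YNL335W are copies of a cyanamide hydratase gene (DDI2 and DDI3) whose probes cannot be assumed to tell them apart. In CO all 3 genes stayed below YHB1 from 30 to 120 min, as did nearly every ORF, since YHB1 was at place 1 or 2 there. YNL335W stood between 0.05 and 1.01 in CO and between 0.14 and 1.16 in N2. YFL061W stood between 0.11 and 0.66 in CO and between 0.04 and 1.41 in N2. At 30 min, where YHB1 stood at 2.63 in CO, YNR064C, YFL061W and YNL335W stood at 0.04, 0.11 and 0.05. At 120 min YHB1 stood at 3.73 in CO. YNL335W and YFL061W had their highest CO values then, 1.01 and 0.66, against 0.49 and 0.33 in N2. YNR064C stood at -0.20 in CO and -0.41 in N2 at that time. By 24 h YNL335W and YFL061W stood lower in CO, at 0.29 and 0.12, than in N2, at 1.16 and 1.41. Against air 1 of the 3 passed: YNL335W rose by 0.47 ± 0.11 (SE, adjusted p = 0.0143), a call lost with the 15 min ratios subtracted (adjusted p = 0.382). YFL061W stood at 0.33 ± 0.12 (adjusted p = 0.0661), and passed with quantile normalization (adjusted p = 0.0268) or with the arrays not paired by time (adjusted p = 0.0261). YNR064C stood at -0.29 ± 0.26 (adjusted p = 0.395). Their differences of CO minus N2 were 0.06 for YNR064C, -0.20 for YFL061W and -0.12 for YNL335W, with adjusted p = 0.909, 0.747 and 0.856, in a fit that called 0% of all ORFs. At 24 h against the earlier times YNR064C fell by 1.84 (adjusted p = 1.15e-05), with -1.89 in CO and -1.68 in N2 at 24 h. From 15 and 30 min to 60 and 120 min it fell by 0.54 (adjusted p = 0.0418), a call lost under 16 of 22 alternatives, among them leaving out any of 15 to 120 min (adjusted p up to 0.393).

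Genes of sulfate uptake and reduction, the route on which sulfite is made and consumed, were lower in 5 of 17 cases and higher in 1 against air, where 20.9% of all ORFs were lower and 17% higher. Their median was -0.18, where that of all ORFs was -0.03. MET22 (YOL064C), the phosphatase that clears the by-product of sulfate reduction, fell by 1.38 ± 0.16 (SE, adjusted p = 0.00224). MET14 (YKL001C), the kinase of activated sulfate, fell by 1.04 ± 0.16, and MET5 (YJR137C), a subunit of the siroheme enzyme sulfite reductase, by 0.86 ± 0.23. MET5 was lost without 60 or 120 min (adjusted p = 0.0612 and 0.0681). MET2 (YNL277W), which makes the acceptor of sulfide, rose by 0.73 ± 0.18, lost without 120 min (adjusted p = 0.0547) and with the 15 min ratios subtracted (adjusted p = 0.0556). MET17, which joins sulfide to that acceptor, is 1 of the 17 and is deleted, in whole or part, in the air controls too.

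Glutathione is the carrier on which SFA1 acts. Of 14 genes of glutathione metabolism and formaldehyde oxidation, 5 rose and 0 fell against air (17% and 20.9% of all ORFs), with a median of 0.45. FDH1 (YOR388C), the formate dehydrogenase downstream of SFA1, rose by 1.04 ± 0.18 (SE, adjusted p = 0.00553). GPX1 (YKL026C), a glutathione peroxidase, rose by 0.97 ± 0.17, GTT2 (YLL060C), a glutathione transferase, by 0.79 ± 0.16 and GRX1 (YCL035C), a glutaredoxin, by 0.75 ± 0.14. With the 15 min ratios subtracted GTT2 and GRX1 were lost (adjusted p = 0.147 and 0.0522).

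SFA1 belongs to the medium-chain dehydrogenases, of which 3 of 11 others rose and 0 fell against air (17% and 20.9% of all ORFs), with a median of 0.03. BDH2 (YAL061W) rose by 1.76 ± 0.20 (SE) and its neighbour BDH1 (YAL060W), butanediol dehydrogenase, by 1.39 ± 0.43. ADH6 (YMR318C), an NADPH-dependent alcohol dehydrogenase, rose by 1.09 ± 0.35. ADH2 (YMR303C), the glucose-repressed alcohol dehydrogenase, stood at -0.56 ± 0.29 (adjusted p = 0.149), or at -1.16 and called with the 15 min ratios subtracted (adjusted p = 0.037). With those ratios subtracted BDH2, BDH1 and ADH6 were lost (adjusted p = 0.0719, 0.09 and 0.0894), and BDH1 and ADH6 also without any of 30 to 120 min (adjusted p up to 0.0911). ADH6 was also lost without the CO array of 60 min or of 24 h (adjusted p = 0.0504 and 0.0611).

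Of 17 other genes of heme proteins and of proteins with a cytochrome b5 domain, 15 had values on all arrays, of which 4 rose and 3 fell against air. These counts are near the shares over all ORFs, 17% and 20.9%. CYC1 and HMX1 had values on 10 and 4 arrays and were not tested. ERG11 (YHR007C), the lanosterol demethylase, fell by 1.91 ± 0.26 (SE) and ERG5 (YMR015C), the sterol desaturase, by 1.05 ± 0.33. OLE1 (YGL055W), the fatty acid desaturase, rose by 1.17 ± 0.31 and CYC7 (YEL039C), a cytochrome c of low oxygen, by 1.17 ± 0.27. OLE1 was lost without 60 or 120 min (adjusted p = 0.0649 and 0.0586), and ERG5 without any of 45 min to 24 h or the N2 array of 30 or 45 min (adjusted p up to 0.109). The CO minus N2 fit called 0 of the 15 and 0% of all ORFs, and their mean differences ran from -0.71 to 0.66.

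**Figure D4:**
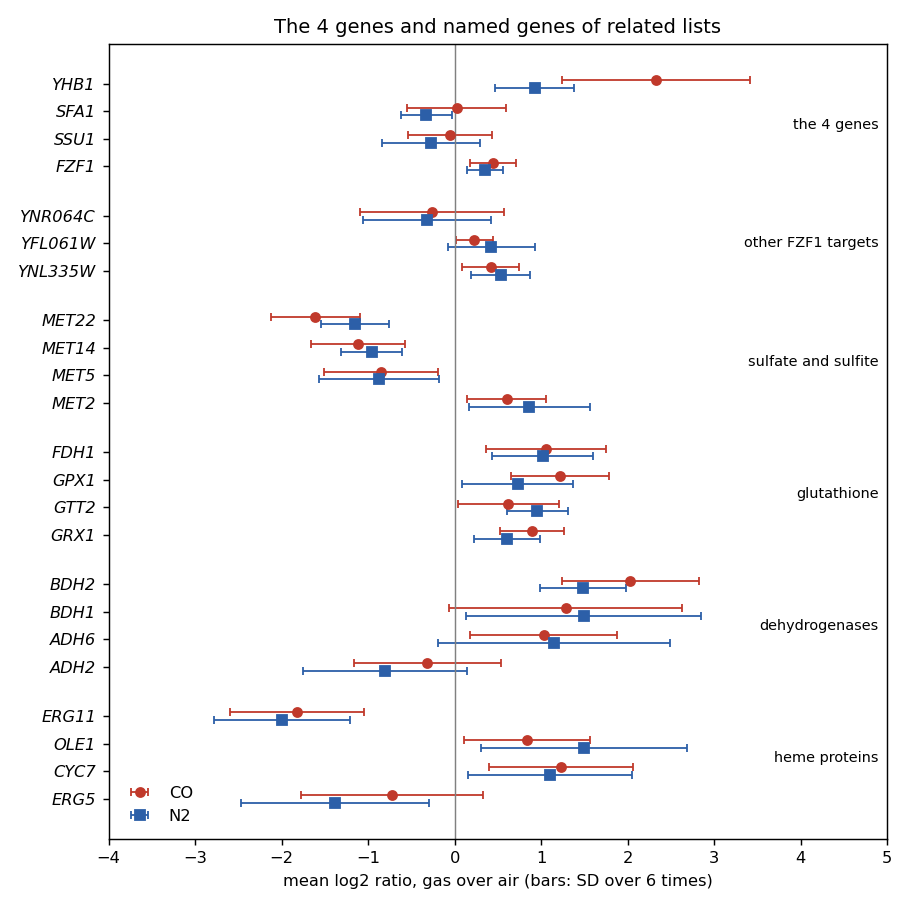
Mean log2 ratio of gas over air (horizontal axis) over the 6 times in CO (red circles) and N2 (blue squares), with bars for the SD over times, for the 4 genes and the named genes of the related lists; DDI2 and DDI3 are given by their ORF names. YHB1 has the widest gap between the gases, 2.33 in CO and 0.93 in N2, among the genes drawn.

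The genes next to the 4 in the R64 annotation did not overlap them. Beside YHB1 on chromosome VII lie PHO81 (YGR233C) and MIC26 (YGR235C), both on the opposite strand. PHO81 stood at -0.71 ± 0.50 (SD, n = 6) in CO and -1.16 ± 0.78 in N2, and MIC26 at 0.16 ± 0.48 and 0.05 ± 0.27. PHO81 was higher in CO than in N2 by 1.04, 0.71 and 0.85 at 45, 60 and 120 min and was -0.01 apart at 30 min. MIC26 was higher in CO by 0.80 and 0.70 at 30 and 45 min, with differences of -0.18 and -0.21 at 60 and 120 min. GLR1 (YPL091W), glutathione reductase, lies beside SSU1 on chromosome XVI on the same strand and stood at 0.69 ± 0.89 in CO and 0.40 ± 0.82 in N2. Over the 8 neighbours, which also include UGX2 and NRP1 beside SFA1, NOG1 beside SSU1 and ZRT1 and HXK2 beside FZF1, the mean differences of CO minus N2 ran from -0.46 for HXK2 to 0.45 for PHO81.

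Likeness over the 12 arrays was measured by Pearson's r, as a description over arrays that share times and perhaps air references. The ORFs most like YHB1 were YOR389W (r = 0.83), PAP1 (r = 0.83), RDS1 (r = 0.81), RTG2 (r = 0.79) and OSH3 (r = 0.79), and the least like was ULP1 (r = -0.82). Their mean differences of CO minus N2 were 0.20 to 0.52 for those 5 and -0.41 for ULP1. FZF1 was most like CCP1, the heme enzyme cytochrome c peroxidase (r = 0.92), followed by RAM2 (r = 0.92), OPI1 (r = 0.89), ASI2 (r = 0.87) and HAT2 (r = 0.87), and least like SSC1 (r = -0.92). SFA1 was most like MTD1 (r = 0.87), CWC22 (r = 0.85), KCC4 (r = 0.85), SEC6 (r = 0.84) and RNY1 (r = 0.84), and least like MAL33 (r = -0.86). SSU1 was most like NVJ2 (r = 0.89), RIX7 (r = 0.88), ERG6 (r = 0.88), AXL2 (r = 0.87) and ADH2 (r = 0.87), and least like ICY1 (r = -0.95). These lists changed with the measure: without the 24 h arrays 1 of the 5 was shared for YHB1, SSU1 and FZF1 and 0 for SFA1. Among the 4 genes, YHB1 and FZF1 had r = 0.54 over all arrays, 0.51 within CO and 0.75 within N2, and YHB1 and SSU1 had r = -0.30, -0.76 and -0.59.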

How the data were processed

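Transcript ratios were measured on 12 2-colour arrays. The authors deposited a table of log2 ratios, 1 per ORF and array; per the labels, Cy5 held gas-exposed and Cy3 air-exposed RNA. Not given in the sources used here: background correction, normalization, probe sequences, signal over background, and whether the gases shared air references. Values were used as deposited. The 5672 ORFs with a value on all 12 arrays were fitted with limma 3.58.1 in R 4.3.3, with Benjamini-Hochberg adjustment over all of them and a threshold of 0.05.

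Both gases against air was the mean of CO and N2 at each time against 0 (5 residual degrees of freedom). The time comparisons used period and gas (7), with 24 h set against the equal-weight mean of 15 and 30, 45, and 60 and 120 min. CO minus N2 used time as a block (5). Each SE given is limma's moderated SE, which draws the spread of an ORF towards that of all ORFs. The series' design text gives matched times and a time-matched air reference; deviations from the gas means correlated at 0.255 to 0.776 across ORFs at matching times, so arrays were paired by time, though at 30 and 45 min another time correlated more closely. Times are no true replicates, and nothing says that arrays came from separate cultures, so p-values measure only the spread between arrays. A constant dye effect cancels except in the ratios to air. Symbols came from R64, which matched 5651 ORFs. The fits were also run on simulated data with independent noise on each array. The real arrays share times and perhaps air references, so that run cannot vouch for the p-values given here.

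The members and lists were chosen with earlier results of these data known. Listed genes named were all of a list of 3, otherwise the 4 with the largest mean over both gases; 5 most like and 1 least like ORF were named per member, and the annotated neighbours. The ORFs above YHB1 and PUN1 were chosen after their values were seen. A planned motif search was not run, since no sequences were used here. No batch is given in the labels. Alternatives are described in the closing section.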

Additional observations from a re-analysis of the deposited data

Results flagged for a closer look

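Of 46 groups of 6 arrays checked (each gas, for the 4 genes and the named genes of the lists), 6 flags of a value far from the others were raised. The rule flags about 1 in 20 groups of like replicates by chance. That rate does not carry over to groups of 6 different times. None was of YHB1, SFA1, SSU1 or FZF1. Of the genes that FZF1 activates, YNR064C stood at -1.89 in CO at 24 h, YFL061W (DDI3 in the annotation used) at 0.66 in CO at 120 min and at 1.41 in N2 at 24 h. Of the dehydrogenases, BDH1 at 24 h stood at 3.85 in CO and at 4.14 in N2, and ADH6 at 24 h at 3.84 in N2. All of these values but that of YFL061W in CO at 120 min came from the 24 h arrays, which had the widest spread over all ORFs.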

How the results depend on the processing

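The YHB1 rise against air kept its direction and a p below 0.05 under 24 of 24 alternatives (1.19 to 1.85). That p was unadjusted in 1 of them, the exact sign-flip test, and limma's adjusted p in the others. CO values, in view when the genes were chosen, entered every alternative of this comparison against air. The 2151 ORFs called there became 1219 to 2668 with 1 time left out, 1934 to 2163 with 1 array left out and 958 with the 15 min ratios subtracted, where SSU1 was called at -0.69 and FZF1 was lost at 0.32. FZF1 ran from 0.34 to 0.45, and YNR064C from -0.40 to 0.008, with 1 time left out. Without the replicate block, as 12 unpaired arrays, 3108 ORFs were called and the 4 genes kept their calls. CO minus N2 had 0 calls (limma; 584 at an unadjusted p below 0.05), also without the replicate block and without any time, and 1 with arrays centred on their medians (OST2, -1.42).

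At 24 h, the 2703 calls became 727 with quantile normalization, 1917 to 2817 without 1 array and 2259 to 2883 without 1 time. YHB1 was 0.0675 with median centring and ran from -1.07 to 1.02 without 1 array and from -0.19 to 0.15 without 1 time. Without 1 array SFA1 ran from -1.07 to 0.31, YFL061W (DDI3) from -0.14 to 1.17 (called without the CO array of 24 h, adjusted p = 0.00558) and YNL335W (DDI2) from -0.15 to 0.75, and the last was -0.097 with quantile normalization.

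For 60 and 120 min against 15 and 30 min, the 722 calls became 151 with quantile normalization, 110 to 895 without 1 array and 0 to 1007 without 1 time (0 without 15 min). YHB1 ran from 0.54 to 1.55 without 1 time and from 0.63 to 1.34 without 1 array, passed in neither case, and was 0.43 with quantile normalization. SSU1 ran from -1.15 to -0.49 without 1 time and from -1.03 to -0.63 without 1 array. YFL061W ran from -0.025 to 0.355 without 1 time and from -0.0056 to 0.30 without 1 array, and YNL335W was -0.035 with quantile normalization. For CO minus N2, without 1 time YHB1 ran from 1.13 to 1.75, YFL061W from -0.31 to 0.018 and YNL335W from -0.25 to 0.032. With quantile normalization the ORFs at least 2-fold apart numbered 366 at 15 min (42 as deposited), 690 at 30 min (303), 120 at 120 min (282) and 143 at 24 h (961), and SSU1 at 15 min was 1.31 (0.66). The cause of these changes was not tested, beyond the fewer arrays when some were left out.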
